A study of Gallus gallus with 6 samples.

Results

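Integrins are receptors made of one α and one β chain that span the cell membrane and bind proteins of the extracellular matrix. Laminins are trimers of one α, one β and one γ chain that assemble into the sheet-like network of basement membranes, and nidogens bind both laminin and type IV collagen and so link the networks that these proteins form. In the gut, basement membranes lie under the epithelium, under the mesothelium and around muscle, nerve and vessels, and migrating enteric neural crest cells read the matrix around them through integrins.

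The integrin, laminin and nidogen genes described here were taken by gene symbol, as every integrin α or β chain, every laminin α, β or γ chain and nidogens 1 and 2 that the deposited table lists under such a symbol. They were 28 of 17108 genes: 16 integrin chains (9 α and 7 β), 10 laminin chains and 2 nidogens. The rule used gene symbols alone, although it was set with earlier results of these data known. LAMA1, LAMA5, ITGA3, ITGA5 and ITGA7 were not found under these symbols and so were not analysed here. Shares of the integrin α chains given below therefore leave out ITGA3, ITGA5 and ITGA7.

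RNA-seq had been done on gut dissected from chick embryos at embryonic day 5 (Hamburger-Hamilton stage 26), with 3 libraries from the ceca, the paired blind outgrowths at the junction of small and large intestine, and 3 from the region that the labels call interceca. The labels give no strain and no manipulation for either group. Nor do they state that each library came from its own embryo or pool, and the p-values therefore reflect the spread among these 6 libraries alone, which may be technical. The question put to each gene was whether its transcript level differed between the ceca and the interceca.

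Reads recovered from the deposited values came to between 15741991 and 22802209 per library. Across all genes tested, libraries of one tissue correlated at 0.987 to 0.991 and libraries of different tissues at 0.943 to 0.959. Replicate 1 of both tissues stood apart on the second principal component (10.1% of the variance), at 14.29 in ceca and 13.47 in interceca against -13.57 to -3.43 for the other 4 libraries. GDNF, EDN3, WNT11 and WNT5A, signalling genes known from the ceca, were looked up beside the tissue label. All 4 of 4 rose in ceca, beside 13.5% of all tested genes, although WNT11 passed the filter below through ceca alone, where it is high. These 4 genes were chosen with earlier results of these data known, so their rise is no independent check of the label. In these bulk samples fewer cells of a type and less RNA per cell cannot be told apart.

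Levels are given in RPKM, reads per kilobase of gene and per library size, which scales out gene length and depth. Comparisons of level between genes, and shares of chains, are approximate, since the annotation behind gene lengths and read assignment is not stated. Differences are log2 fold changes (ceca over interceca, after adding 0.5 RPKM to every value, which shrinks the change of low genes), with their standard error (SE), from one limma fit across the 10678 genes that reached 1 RPKM in 3 or more libraries. A gene is said to have risen or fallen in ceca where its Benjamini-Hochberg adjusted p over all those genes was under 0.05. Of the 28 members, 18 passed this filter on low values and 10 did not.

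Of the 18 tested members, 3 rose in ceca (NID1, NID2 and ITGA8), 5 fell (LAMA3, ITGB3, ITGA4, ITGB5 and ITGA1) and 10 did not pass the threshold. The 3 that rose are 16.7% of those tested, beside 13.5% of all tested genes. The 5 that fell are 27.8%, beside 14.1% of all tested genes, and both directions together are 44.4% beside 27.5%. The ceca and interceca libraries did not overlap for 9 of the 18 (50.0%), beside 44.1% of all tested genes. Ceca lay above interceca with no overlap in 3 of the 18 (16.7%), beside 23.0% of all tested genes, and below in 6 of the 18 (33.3%), beside 21.1%. The median log2 fold change was -0.125 over the 18 members and 0.01 over all tested genes. Without both libraries numbered 1, a setting chosen after seeing the data, 3 members again rose and 5 fell, with ITGB8 in the place of NID2 among those that rose. The count that rose dropped from 3 to 1 with ceca replicate 2, interceca replicate 2 or interceca replicate 3 left out and to 0 with ceca replicate 3 left out. A test against a fold of 1.5 instead of no change called 0 of the 18. LAMA3 reached 1 RPKM in 1 ceca library and all 3 interceca libraries, so it needed interceca libraries to pass the filter.

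**Figure D1:**
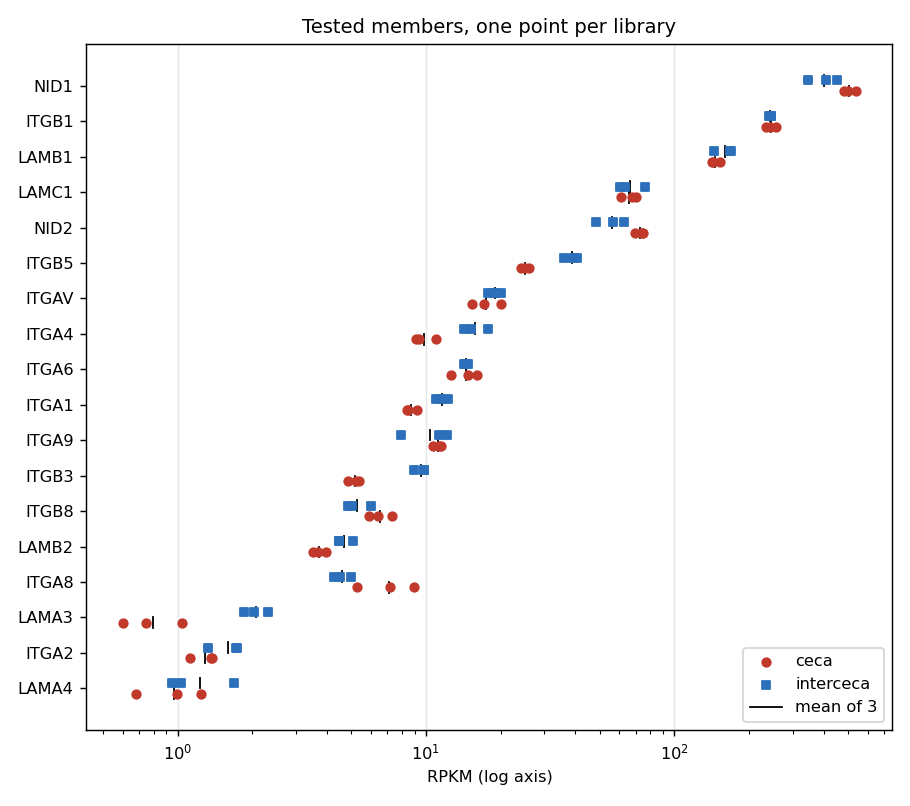
RPKM (log axis) of the 18 members that passed the filter on low values, with 1 point per library, red circles for ceca and blue squares for interceca, and a bar at the mean of 3 libraries. NID1 lies highest, at 344.5 to 538.1 RPKM, and LAMA3, LAMA4 and ITGA2 lie lowest, and the tissues are fully apart for 9 of the 18.

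Both nidogens rose in ceca. NID1, which bridges laminin and type IV collagen, stood at 538.1, 499.7 and 480.9 RPKM in ceca replicates 1 to 3 and at 450.9, 408.2 and 344.5 in interceca. Its lowest ceca library lay above its highest interceca library. The means were 506.3 ± 29.1 and 401.2 ± 53.5 RPKM (SD, n = 3), a ratio of 1.26 and a difference of 0.34 ± 0.10 in log2 (SE, adjusted p = 0.0324). NID1 was the most abundant member, with 98.6% of tested genes below its mean level.

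NID2, a second nidogen with the same domain plan, stood at 75.1, 69.5 and 74.2 RPKM in ceca and at 56.5, 63.0 and 48.2 in interceca. Again no interceca library reached the ceca range. Its log2 fold change was 0.39 ± 0.09 (adjusted p = 0.0158), a ratio of means of 1.30. NID1 made up 87.4% ± 0.656 (SD, n = 3) of the summed nidogen level in ceca and 87.7% ± 1.12 in interceca, so the proportion of the 2 nidogens differed by less than the spread between libraries.

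Both calls lay near the threshold. Leaving out 1 library at a time, the adjusted p of NID1 lay between 0.0109 and 0.0873, and it passed 0.05 in a single one of the 6 fits, the one without interceca replicate 1. It was 0.054 without the filter on low values, 0.0637 with limma without a trend, and 0.00177 with the replicate number as a block. NID2 passed in 5 of the 6 fits and reached 0.0568 without ceca replicate 3, and 0.0771 without both libraries numbered 1.

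Among the laminin chains taken by symbol, those of highest level did not pass the threshold, and the tested chain that changed was a minor one. A gene listed only as laminin, with no chain named, lies outside the rule, and its log2 fold change, looked up after the fit, was 1.52 (adjusted p = 0.001). LAMB1, the β1 chain found in most early basement membranes, stood at 152.5, 143.7 and 141.7 RPKM in ceca and at 168.1, 169.2 and 144.7 in interceca. The ranges overlapped through interceca replicate 3. The log2 fold change was -0.14 ± 0.07 (adjusted p = 0.184), and without that library the adjusted p was 0.0259.

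LAMC1, the γ1 chain that most laminin trimers contain, stood at 60.8, 69.8 and 67.4 RPKM in ceca and at 60.3, 75.9 and 63.5 in interceca. The interceca range enclosed the ceca range, and the log2 fold change was -0.01 ± 0.09 (adjusted p = 0.960). LAMB1 made up 97.2% to 97.5% of the summed level of the 4 laminin β chains in ceca and 96.8% to 97.3% in interceca. The LAMB1 shares overlapped. Shares are given as a description and were not tested.

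LAMB2, the β2 chain known from muscle, nerve and vessel basement membranes, stood at 3.68, 3.50 and 3.97 RPKM in ceca and at 4.47, 5.08 and 4.47 in interceca. All 3 ceca libraries lay below all 3 interceca libraries. The log2 fold change of -0.29 ± 0.11 did not pass the threshold (adjusted p = 0.0750), while limma-voom on the recovered reads gave 0.0212 and limma without a trend 0.0316.

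Of the laminin α chains, LAMA3, part of the epithelial laminin that anchors hemidesmosomes, fell. It stood at 0.603, 1.04 and 0.747 RPKM in ceca and at 1.85, 2.03 and 2.32 in interceca. Every interceca library was above every ceca library, and the interceca mean was 2.59 times the ceca mean (2.07 ± 0.234 and 0.798 ± 0.224). The log2 fold change was -0.99 ± 0.18 (adjusted p = 0.00469), and it passed 0.05 whichever library was left out. LAMA4, a chain of vessel and mesenchymal basement membranes, stood at 0.680, 0.993 and 1.24 RPKM in ceca and at 1.03, 1.69 and 0.950 in interceca. Its ranges overlapped, and its log2 fold change was -0.22 ± 0.23 (adjusted p = 0.517).

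**Figure D2:**
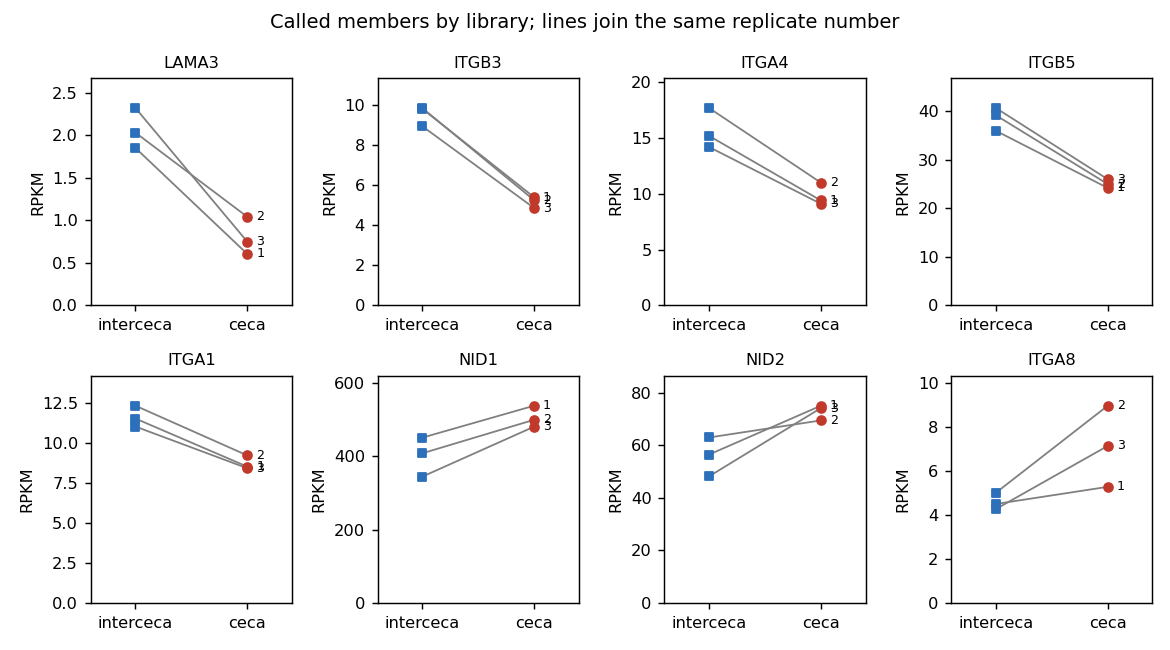
RPKM by library of the 8 members that rose or fell, each panel with its own axis from 0, blue squares for interceca and red circles for ceca, with lines joining libraries of the same replicate number (printed beside the ceca points). All 3 lines fall in LAMA3, ITGB3, ITGA4, ITGB5 and ITGA1 and rise in NID1, NID2 and ITGA8, with the ITGA8 line of replicate 1 the flattest of that gene.

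Among the integrin β chains, ITGB1, the partner of most α chains, was the most abundant and was level between the tissues. It stood at 233.4, 257.1 and 241.9 RPKM in ceca and at 241.0, 245.2 and 245.1 in interceca. The ceca range enclosed the interceca range, and the log2 fold change was 0.00 ± 0.05 (adjusted p = 0.992). It still made up a larger share of the summed level of the 7 β chains in ceca (86.0% to 87.1%) than in interceca (81.2% to 81.7%).

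The difference in share lay mainly with ITGB5 and ITGB3, at -3.99 and -1.35 percentage points (ceca minus interceca), beside 5.14 for ITGB1. Both pair with αV in receptors that bind RGD-containing matrix proteins such as vitronectin and fibronectin. Of the other β chains that pair with αV, ITGB6 differed by -0.27 points and ITGB8 went the other way, by 0.55. ITGB3, the β chain of the vitronectin receptor, stood at 5.40, 5.25 and 4.86 RPKM in ceca and at 9.82, 9.86 and 8.95 in interceca. The tissues were far apart relative to the spread within each: the interceca mean was 1.85 times the ceca mean, with SDs of 0.516 and 0.279. ITGB3 fell in ceca by 0.82 ± 0.09 on the log2 scale (adjusted p = 0.000293).

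ITGB5, another β chain of vitronectin receptors, stood at 24.2, 25.0 and 26 RPKM in ceca and at 36.0, 39.2 and 40.7 in interceca. No libraries overlapped and the ratio of means was 1.54 in favour of interceca. Its log2 fold change was -0.61 ± 0.06 (adjusted p = 0.000236). The calls of ITGB3 and ITGB5 held whichever library was left out, with adjusted p no higher than 0.00239 and 0.00193.

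ITGB8, whose pairing with αV is known to activate latent TGF-β, did not pass the threshold. It stood at 5.92, 6.44 and 7.27 RPKM in ceca and at 5.98, 5.05 and 4.86 in interceca, overlapping through replicate 1 of each tissue. Its log2 fold change was 0.28 ± 0.11 (adjusted p = 0.110). It passed 0.05 with quantile normalization (0.0461), with library weights (0.0382) and without both libraries numbered 1 (0.0469). Within the 4 β chains that pair with αV other than ITGB1, ITGB8 made up 16.6% to 19.0% in ceca and 8.74% to 11.4% in interceca, while their summed level was 35.6 to 38.2 RPKM in ceca and 52.6 to 55.6 in interceca.

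ITGAV itself, the α chain common to these receptors, stood at 17.2, 20.0 and 15.3 RPKM in ceca and at 17.8, 20.1 and 18.8 in interceca. The tissues overlapped, and the log2 fold change was -0.11 ± 0.10 (adjusted p = 0.440). ITGA8, whose α8β1 receptor binds nephronectin and other RGD proteins, stood at 5.28, 8.97 and 7.14 RPKM in ceca and at 4.50, 5.01 and 4.27 in interceca. Its ceca libraries lay above all interceca libraries, and ceca replicate 1 was the closest to them.

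The means of ITGA8 were 7.13 ± 1.84 and 4.59 ± 0.374 RPKM, a ratio of 1.55, with a log2 fold change of 0.56 ± 0.17 (adjusted p = 0.0471). This was the least secure of the 8 calls. With libraries left out in turn, it passed 0.05 only without ceca replicate 1 (0.00648), and the other 5 fits gave 0.0775 to 0.13. It was also lost without the filter on low values (0.0775), with median-of-ratios scaling (0.0532) and with limma without a trend (0.065).

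The chains of the collagen receptors pair with ITGB1. ITGA1, which binds type IV collagen among others and is known from smooth muscle, stood at 8.50, 9.20 and 8.40 RPKM in ceca and at 11.5, 12.3 and 11.0 in interceca. There was no overlap and the ratio of means was 1.33 in favour of interceca. It fell in ceca, by 0.39 ± 0.08 on the log2 scale (adjusted p = 0.0071, and 0.0133 to 0.0337 with a library left out). ITGA2, the other collagen-binding chain that was tested, stood at 1.12, 1.36 and 1.38 RPKM in ceca and at 1.72, 1.73 and 1.33 in interceca, where replicate 3 fell within the ceca range. Its log2 fold change was -0.22 ± 0.16 (adjusted p = 0.345).

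ITGA4, a receptor chain for fibronectin and VCAM1 known from neural crest cells and leukocytes, stood at 9.40, 11.0 and 9.10 RPKM in ceca and at 15.2, 17.7 and 14.2 in interceca. The tissues did not overlap, and replicate 2 was the highest of both. The interceca mean was 1.60 times the ceca mean (15.7 ± 1.84 and 9.82 ± 1.00 RPKM). The log2 fold change was -0.65 ± 0.11 (adjusted p = 0.00281), and the call held with each library left out. ITGA9, the chain most like ITGA4, stood at 11.3, 10.7 and 11.5 RPKM in ceca and at 11.3, 12.1 and 7.96 in interceca, with a log2 fold change of 0.12 ± 0.14 (adjusted p = 0.587). Its tissues overlapped and interceca replicate 3 stood below the other 5 libraries.

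ITGA6, which pairs with ITGB1 or ITGB4, was the single tested α chain grouped here as laminin-binding. ITGA1 and ITGA2 were grouped as collagen-binding, a grouping that does not exclude laminin as a ligand. ITGA6 stood at 12.6, 14.7 and 16.1 RPKM in ceca and at 14.2, 14.7 and 14.5 in interceca. The ceca range enclosed the interceca range, and the log2 fold change was -0.01 ± 0.09 (adjusted p = 0.955). As shares of the 9 α chains, ITGA4 and ITGA1 were lower in every ceca library (13.2% to 14.4% and 12.1% to 13.0%) than in interceca (19.5% to 21.0% and 14.6% to 15.1%). ITGA8 was higher, at 8.05% to 11.8% in ceca and 5.88% to 5.92% in interceca.

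**Figure D3:**
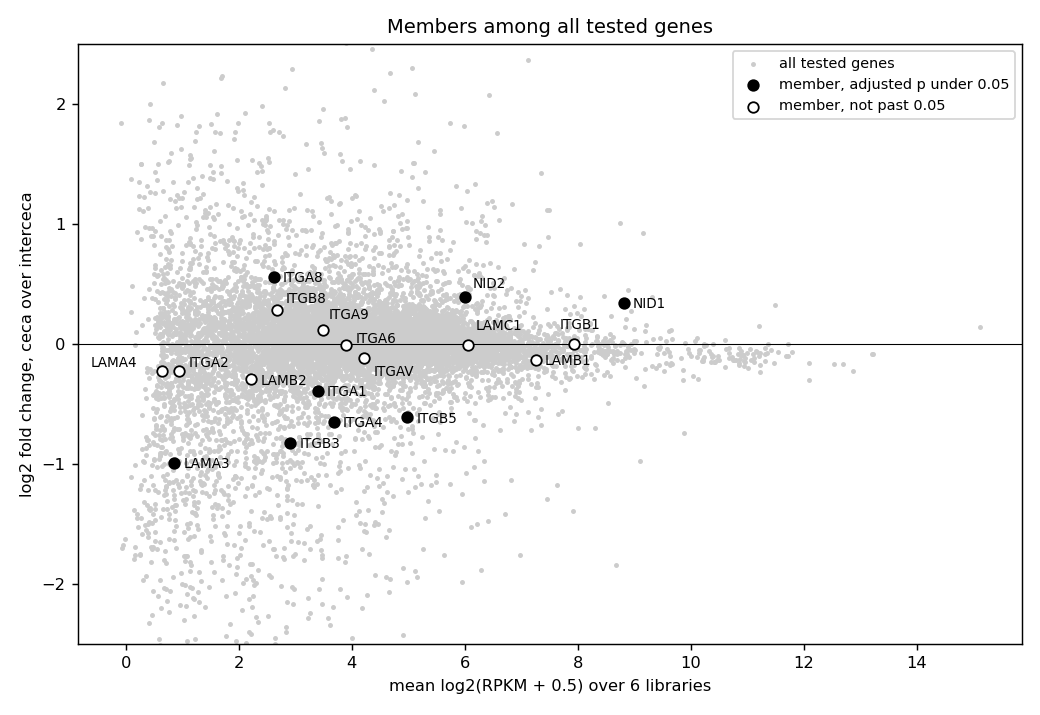
Log2 fold change of ceca over interceca against the mean log2(RPKM + 0.5) over 6 libraries for all tested genes (grey) and the 18 tested members, filled where adjusted p was under 0.05, with 64 genes beyond the drawn range of -2.5 to 2.5 left out. The members lie between -0.99 (LAMA3) and 0.56 (ITGA8), and ITGB1 and LAMC1 lie on the zero line.

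Of the 10 members below the filter, 9 are described, among them chains of epithelial receptors and of the epithelial laminin. Their differences were taken from a fit with no filter, in which a low level compresses the log2(RPKM + 0.5) change, and from limma-voom on reads recovered from the RPKM, which was added after seeing the data. Of the 9, limma with no filter called 3 lower (ITGB6, ITGB4 and ITGA11), where 11.5% of all genes were called lower. The fit on reads called 4 lower, adding LAMB3, beside 12.9% of all genes, and 1 higher, LAMA2, beside 11.8%. Ceca lay below interceca with no overlap in 5 of the 9 and above in 1, beside 19.6% and 19.0% of all genes in the fits with no filter. Among those below, LAMB3 and LAMC3 were barely apart. LAMB3 had 1 read in both ceca replicate 2 and interceca replicate 1. LAMC3 had 22 reads in ceca replicate 3 and 24 in interceca replicate 3.

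ITGB6, the β chain of an epithelial αV receptor, stood at 0.0463, 0.0969 and 0.0881 RPKM in ceca and at 0.809, 0.701 and 1.16 in interceca. That was 3, 7 and 6 reads against 40, 44 and 84, an 11.6-fold ratio of means in favour of interceca. All 3 interceca libraries stood far above all 3 ceca libraries, and the change on reads was -3.45 ± 0.44 in log2 (adjusted p = 0.000202). With no filter on RPKM it was -1.26 ± 0.14 (adjusted p = 0.00117).

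LAMB3, the β chain that joins LAMA3 in the epithelial laminin, had 0, 1 and 0 reads in ceca and 1, 19 and 9 in interceca. Interceca replicate 1 was near the ceca libraries, which with such counts allow no fold, and the adjusted p was 0.0273 on reads and 0.187 on RPKM.

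ITGB4, which with ITGA6 forms the hemidesmosome integrin, stood at 0.275, 0.256 and 0.261 RPKM in ceca and at 0.841, 0.777 and 0.548 in interceca. The interceca mean was 2.74 times the ceca mean with no overlap, and the change on RPKM with no filter was -0.67 ± 0.12 (adjusted p = 0.00855, and 0.0043 on reads). ITGA11, a receptor chain for fibrillar collagen known from mesenchyme, stood at 0.143, 0.198 and 0.173 RPKM in ceca and at 0.409, 0.811 and 0.525 in interceca. The tissues did not overlap, and interceca was 3.39 times ceca in the means (adjusted p = 0.0187 on RPKM with no filter and 0.00312 on reads).

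**Figure D4:**
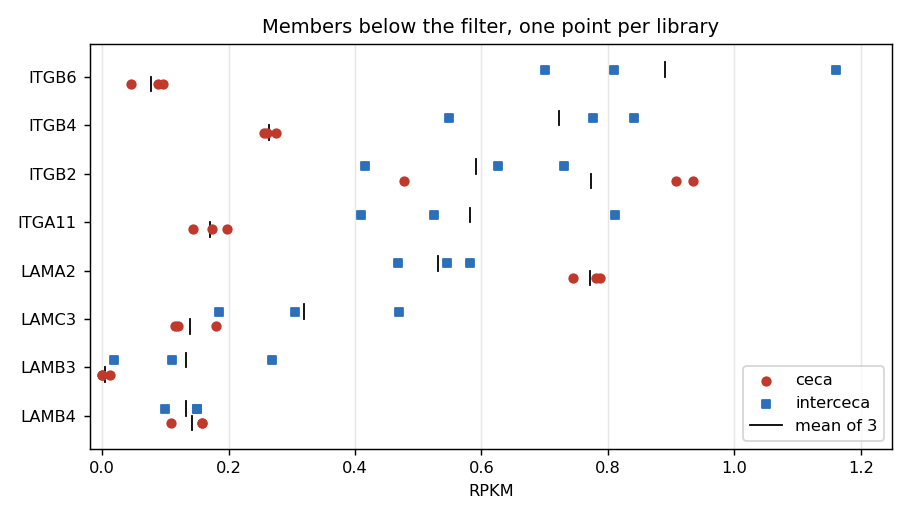
RPKM (linear axis) of 8 members below the filter, 1 point per library, red circles for ceca and blue squares for interceca, with a bar at the mean of 3. ITGB6 has its ceca libraries under 0.1 RPKM and its interceca libraries at 0.701 to 1.16, and LAMA2 is the member whose ceca libraries all lie above interceca.

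LAMA2, the α chain of muscle and nerve laminin, ran the other way, at 0.745, 0.781 and 0.787 RPKM in ceca and 0.546, 0.582 and 0.468 in interceca. Every ceca library was the higher, with an adjusted p of 0.0234 on reads and 0.0754 on RPKM with no filter. LAMC3, the γ3 chain, stood at 0.120, 0.116 and 0.180 RPKM in ceca and 0.305, 0.470 and 0.185 in interceca, close to overlap in replicate 3 (adjusted p = 0.0911 on reads). ITGB2, the β chain of leukocyte integrins, stood at 0.477, 0.935 and 0.908 RPKM in ceca and 0.626, 0.731 and 0.416 in interceca, with overlap (adjusted p = 0.472 on reads). LAMB4 ran at 0.0999 to 0.158 RPKM over the 6 libraries (adjusted p = 0.895 on reads), and ITGA2B, the platelet integrin α chain, is listed at 0 in all 6. KRT8 and KRT18, used by many epithelia, are also listed at 0, so nothing is read from such an entry.

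In the authors' deposited table, 16 of the 28 members had an adjusted p under 0.05, beside 20.9% of all genes listed there. That share is over all 17108 genes listed, of which 14080 were above 0 in any library, while 1 of the 28 members is listed at 0. It is therefore a low background for the members, and no share of all genes by direction was computed. Of the 16 members, 4 were higher in ceca (NID1, NID2, ITGA8 and LAMA2) and 12 lower. Those lower included ITGB6, ITGB3, ITGB5, LAMA3, ITGA4, ITGB4, ITGA11, ITGA1, LAMB3, LAMB2 and LAMC3. The 8 members called by limma are all among those 16 in the authors' deposited table.

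The other components of basement membranes moved in both directions, and the type IV collagen chains were split. Of 26 partner genes found, 21 were tested, and 10 rose (47.6%, beside 13.5% of all tested genes), 8 fell (38.1%, beside 14.1%) and 3 did not pass, with a median log2 fold change of 0.09. COL4A5, which pairs with COL4A6 in a trimer of smooth muscle and epithelial basement membranes, stood at 57.6, 72.9 and 66.2 RPKM in ceca and at 29.9, 34.1 and 37.1 in interceca (change in log2 0.95 ± 0.10, adjusted p = 0.000354). COL4A6 stood at 53.4, 59.9 and 53.8 RPKM in ceca and at 29.7, 29.7 and 30.0 in interceca (0.89 ± 0.06, adjusted p = 2.96e-05). Both rose with no overlap of libraries.

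COL4A1, a chain of the most widespread type IV collagen, stood at 5.42, 6.15 and 5.35 RPKM in ceca and at 9.02, 9.70 and 9.33 in interceca (-0.68 ± 0.09, adjusted p = 0.000798). COL4A2, its partner in that trimer, stood at 4.32, 4.48 and 4.99 RPKM in ceca and at 6.86, 9.16 and 7.59 in interceca (-0.71 ± 0.12, adjusted p = 0.0035). Both fell with no overlap, in contrast to the nidogens, which bind such collagen networks, and to LAMB1 and LAMC1, which did not pass the threshold. SMOC2, a calcium-binding matrix protein, rose from 76.1 ± 9.51 RPKM in interceca to 170.8 ± 15.2 in ceca (adjusted p = 9.95e-05). FBLN1, a fibulin that binds laminin and nidogen, rose from 20.0 ± 1.53 to 32.2 ± 1.35 (adjusted p = 0.000248).

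FREM2, a protein of the sublaminar layer under epithelia, fell from 9.37 ± 2.14 RPKM in interceca to 1.96 ± 0.648 in ceca (adjusted p = 0.000464). TINAG, a tubular basement membrane antigen, had 2.69, 3.56 and 4.94 RPKM in interceca and 0.624, 0.774 and 0.622 in ceca (adjusted p = 0.00047). It passed the filter through interceca alone, where it is high, as NTN1 did through ceca, so these 2 of the 18 calls lean on the filter. The count of partners that fell dropped from 8 to 5 without ceca replicate 1, to 5 without interceca replicate 1, to 4 without interceca replicate 2 and to 5 without both libraries numbered 1. TINAG is 1 of the genes lost without an interceca library, since it then misses the filter.

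**Figure D5:**
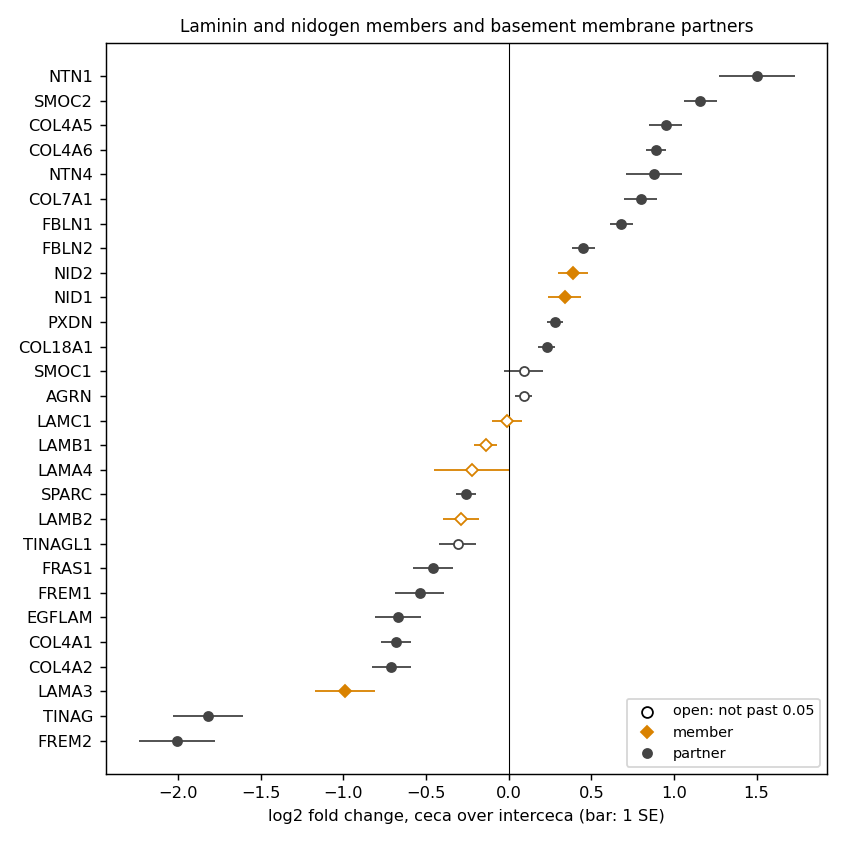
Log2 fold change of ceca over interceca, with a bar of 1 SE, for the tested laminins and nidogens (orange diamonds) and their basement membrane partners (dark circles), filled where adjusted p was under 0.05. The nidogens lie with the partners that rose, at 0.34 and 0.39, COL4A1 and COL4A2 lie at -0.68 and -0.71, and FREM2 lies lowest at -2.01.

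Of 18 tested integrin ligands listed apart from the basement membrane partners, 8 fell (44.4%, beside 14.1% of all tested genes), 4 rose (22.2%, beside 13.5%) and 6 did not pass. Their median log2 fold change was -0.18, and the difference between these counts was not tested. VTN, the ligand vitronectin of the ITGB3 and ITGB5 receptors, stood at 6.11, 9.96 and 11.0 RPKM in ceca and at 54.6, 64.8 and 75.5 in interceca (-2.81 ± 0.21, adjusted p = 5.39e-05). SPP1, osteopontin, another of their ligands, stood at 4.67, 6.00 and 7.43 RPKM in ceca and at 31.9, 46.6 and 56.5 in interceca (-2.78 ± 0.22, adjusted p = 7.58e-05). Both ligands and both β chains were thus lower in every ceca library than in any interceca library.

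TGFBI, an RGD-containing matrix protein, fell from 79.7 ± 6.09 to 35.1 ± 0.863 RPKM (adjusted p = 1.23e-05), and COL3A1, a fibrillar collagen, from 171.2 ± 18.4 to 63.8 ± 4.88 (adjusted p = 2.48e-05). The 4 that rose were COL6A1, COL6A2 and COL6A3, the chains of the microfibrillar type VI collagen, and FBN2, a fibrillin. COL6A1 rose by 0.63 ± 0.13 in log2 (adjusted p = 0.0104), COL6A2 by 0.74 ± 0.16 (0.0111), COL6A3 by 0.65 ± 0.13 (0.00643) and FBN2 by 0.47 ± 0.11 (0.0169, and up to 0.06 with a library left out). NPNT, nephronectin, the α8β1 ligand, fell from 18.6 ± 0.655 to 13.0 ± 0.918 RPKM (-0.50 ± 0.07, adjusted p = 0.00133), while ITGA8 rose. FN1, fibronectin, stood at 147.8, 115.2 and 105.6 RPKM in ceca and at 159.5, 139.9 and 120.3 in interceca, overlapping (-0.19 ± 0.14, adjusted p = 0.35). Ceca was lower in each of the 3 replicate numbers, and with the number as a block its adjusted p was 0.0119. NPNT and FN1 were picked for their known receptors after their values were seen.

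A further list held laminin receptors other than integrins together with proteins associated with them, such as sarcoglycans and utrophin. Of the 8 tested, 2 rose (25.0%, beside 13.5% of all tested genes), 1 fell (12.5%, beside 14.1%) and 5 did not pass. SGCB and UTRN, which rose, are such associated proteins. DAG1, dystroglycan, was level, with means of 62.3 RPKM in ceca and 62.2 in interceca (adjusted p = 0.972, log2 fold change 0.00 ± 0.07), and it was named after its value was seen. SDC4, a syndecan that acts with integrins at adhesion sites, fell from 28.6 ± 2.47 to 12.2 ± 0.196 RPKM (-1.20 ± 0.07, adjusted p = 2.53e-05). SGCB, a sarcoglycan, rose by 0.48 ± 0.08 in log2 (adjusted p = 0.00355), and UTRN, the dystrophin relative utrophin, by 0.31 ± 0.08 (adjusted p = 0.019). UTRN missed 0.05 when either of 2 libraries was left out, ceca replicate 2 or interceca replicate 3. Without both libraries numbered 1 the count that rose was also 1. RPSA, the laminin receptor that is also a ribosomal protein, did not pass (adjusted p = 0.227) and had an adjusted p of 0.0432 once the replicate number entered as a block, and it was picked after its values were seen.

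Inside the cell, 25 components of the integrin adhesion complex were tested, of which 5 fell (20.0%, beside 14.1% of all tested genes), 3 rose (12%, beside 13.5%) and 17 did not pass. Their median log2 fold change was -0.01, and the count that fell was 3 when interceca replicate 2 or interceca replicate 3 was left out. ACTN1, the actin cross-linker α-actinin, stood at 71.1, 83.8 and 72.7 RPKM in ceca and at 165.8, 170.4 and 164.3 in interceca (-1.14 ± 0.07, adjusted p = 1.89e-05). The kinase gene FAK ran the other way, at 71.6, 70.4 and 72.0 RPKM in ceca and at 57.1, 55.7 and 51.3 in interceca (0.38 ± 0.05, adjusted p = 0.001). PTK2B, a kinase related to FAK, fell from 2.34 to 0.534 RPKM in the means (adjusted p = 0.000365), but it passed the filter through interceca alone, where it is high, and so it leaves the test when an interceca library is left out. ZYX and PXN, adaptor proteins of adhesion sites, fell by 0.32 and 0.30 on the log2 scale (adjusted p = 0.000521 and 0.0119). CRK and TNS3, an adaptor and a tensin, rose by 0.25 and 0.46 (adjusted p = 0.0052 and 0.00867).

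Of 7 hemidesmosome partners of ITGA6 and ITGB4 found, 4 were tested and 3 are listed at 0 in all 6 libraries. Of the 4, 2 rose (50.0%, beside 13.5% of all tested genes), 1 fell (25.0%, beside 14.1%) and 1 did not pass. COL17A1, the transmembrane collagen of hemidesmosomes, fell, at 1.31, 2.80 and 1.67 RPKM in ceca and 4.68, 5.68 and 5.83 in interceca (-1.32 ± 0.22, adjusted p = 0.00303). CD151, a tetraspanin that binds ITGA6, stood at 39.7, 48.6 and 47.9 RPKM in ceca and at 27.4, 31.7 and 36.6 in interceca (0.51 ± 0.12, adjusted p = 0.0136). DST, a plakin, rose by 0.51 ± 0.11 in log2 (adjusted p = 0.0111). CD151 missed 0.05 without ceca replicate 3 (0.0543), which left 1 of the 4 higher, beside 900 of the 10584 genes tested in that fit.

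Markers of several cell types moved between the tissues, and their part in these results was not tested. All marker counts below stand beside 13.5% of all tested genes that rose and 14.1% that fell. Beside LAMA3, ITGB4, ITGB6 and COL17A1, genes known from epithelium, 6 of 9 tested epithelial markers fell, 1 rose and 2 did not pass, and none of the 10 found is listed at 0. Among other genes listed with hemidesmosomes, ITGA6, which also pairs with ITGB1, did not pass the threshold, and CD151 and DST rose. The cause of these differences was not tested. The summed epithelial marker level was 147.6 to 216.8 RPKM in ceca and 405.5 to 611.6 in interceca, with ceca replicate 1 the lowest. EPCAM, an epithelial adhesion molecule, stood at 55.0, 79.0 and 72.9 RPKM in ceca and at 189.2, 231.2 and 287.1 in interceca.

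Beside ITGA1, a chain known from smooth muscle, all 7 of 7 tested smooth muscle markers fell, with summed levels of 185.7 to 214.8 RPKM in ceca and 476.1 to 503.7 in interceca. COL4A5 and COL4A6, chains of smooth muscle and epithelial basement membranes, rose. LAMA2, below the filter, was higher in every ceca library (adjusted p = 0.0754 with limma on RPKM with no filter). The cause of these differences was not tested. Mesothelial markers summed to 302.6 to 324.6 RPKM in ceca and 107.2 to 115.7 in interceca, and 4 of 7 tested rose, 2 fell and 1 did not pass. Beside ITGA4, enteric neural crest markers summed to 2.13 to 8.1 RPKM in ceca, with replicate 1 the lowest, and 11.6 to 12.3 in interceca, and 1 of 4 tested fell and 3 did not pass. With the replicate block 3 of these 4 fell, adding RET (adjusted p = 0.0435) and SOX10 (0.0156). Neuronal markers summed to 804.6 to 879.5 RPKM in ceca and 941.6 to 1004.3 in interceca, where 2 of 6 tested fell, 1 rose and 3 did not pass. TUBB3 alone made up 86.3% to 94.7% of these sums, and the 2 that fell were NEFL and NEFM (log2 fold changes of -1.80 and -1.79). WT1 made up 57.0% to 62.5% of the mesothelial sum in ceca and 22.5% to 28.2% in interceca, and the 2 mesothelial markers that fell, MSLN and UPK1B, passed the filter through interceca alone.

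The 8 endothelial markers summed to 130.4 to 141.8 RPKM in ceca and 110.9 to 141.1 in interceca, with 1 rising and 7 not past the threshold. Leukocyte markers summed to 48.5 to 60.6 and 48.8 to 50.6 RPKM (1 of 6 tested rose, 2 fell and 3 did not pass). The riser was LCP1, an actin bundler, at 20.0 RPKM in ceca and 5.62 in interceca in the means. Erythroid and thrombocyte markers summed to 158.0 to 177.0 and 120.9 to 153.0 RPKM without overlap, and none of the 4 tested passed. HBE alone made up 80.8% to 91.5% of these sums in ceca and 73.0% to 86.3% in interceca. The median log2 fold change of the 4 was -0.15, and HBE passed with the replicate block (adjusted p = 0.0252). Markers of skeletal and cardiac muscle summed to at most 2.08 RPKM in any library, with 2 of the 6 found listed at 0 and 1 tested. That gene, ACTN2, rose (adjusted p = 0.0149), but it passed the filter through ceca alone, where it is high.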

How the data were processed

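The values are the authors' deposited RPKM for 6 libraries, per the file headers. The series table's name says FPKM and its header RPKM. All 6 per-library files equal that table, which lists 17108 genes and 1 row of column totals, left out here. Of the genes, 3386 carry only an Ensembl ID. Per the file headers, the table also holds the authors' own comparison as a log2 fold change, p-values before and after adjustment, and −log10 of the adjusted value. The submitters' processing notes name edgeR, HTSeq, STAR, bcl2fastq and the build galGal4. Their versions, the annotation and strand use in counting are not stated in the labels or headers, so genes that overlap or share reads with a near copy are uncertain. LAMB1 lies next to LAMB4 on chromosome 1 in RefSeq GRCg7b, used only for names (all 28 members matched) and neighbours.

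RPKM are not counts, so log2(RPKM + 0.5) was compared with limma 3.58.1 in R 4.3.3 (lmFit, eBayes with a trend, tissue as the only term, two-sided, Benjamini-Hochberg over 10678 genes). RPKM steps gave back whole reads, within 0.01 read, for 100.0% of the genes tested. Those reads were used for limma-voom as an alternative and for depth, 15741991 to 22802209 reads per library, and a count of 0 was taken to allow up to 3 reads, counting error only. The fit was also run on simulated data without a replicate effect. The changes put into those data were all larger than those of NID1, NID2 and ITGA1, so it says nothing of calls that small. ITGA8, with a ratio of means of 1.55, lay close to the smallest of them. The same extra spread was given to all genes, so the simulation does not bear on genes that vary more, such as ITGA8 in ceca (7.13 ± 1.84 RPKM). Tables and figures used Python 3.11.15, numpy 2.4.6, pandas 2.3.3 and matplotlib 3.10.9.

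The members, the gene lists and the tests were chosen with earlier results of these data known. Every member is named except 1 that is not reported here, and of each list up to 4 genes per direction with the smallest p. Other genes, marker genes apart, are said to be picked after their values were seen. Deviations from the tissue means correlated between libraries of the same replicate number at 0.364, 0.227 and 0.213, and between other numbers at -0.238 to 0.031. Deviations from a shared mean cancel out, so the negative values are partly forced. The numbers were taken as a possible pairing of the libraries, from the data and not from the labels. The main fit did not use this pairing, since the labels do not state it. The fit with the replicate number as a block was an alternative, as were other scalings, filters, pseudocounts and weights, and leaving out each library.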

Additional observations from a re-analysis of the deposited data

How the results depend on the processing

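The replicate block left the members at 3 higher and 5 lower and gave 1879 genes higher and 1888 lower. A test against a fold of 1.5 left 179 genes higher, 385 lower and no member (0 higher, 0 lower; ITGB3 came closest at adjusted p = 0.17). Leaving out 1 library gave 900 (without ceca replicate 3) to 1286 genes higher, 999 (without interceca replicate 2) to 1316 lower, 0 to 2 members higher and 5 to 6 lower. Members higher were 1 with no filter and 1 with no trend, and members lower were 9 with no filter, which tests more genes. Higher calls were 48.9% of all calls and 31.7% against a fold of 1.5.

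Directions that reversed were all in members not past 0.05. In log2, ITGA2 was 0.023 and LAMA4 0.098 with quantile normalization. ITGA6 was 0.051 with library weights and 0.071 without both libraries numbered 1. Leaving out 1 library, the value ranged from -0.089 to 0.085 for ITGA6, from -0.057 to 0.227 for ITGA9, from -0.037 to 0.033 for ITGB1 (-0.015 with median-of-ratios) and from -0.075 to 0.089 for LAMC1. The cause was not tested. Some low members rest on few reads, such as LAMB3 (0, 1 and 0 in ceca), where a count of 0 allows up to 3. LAMA2, also below the filter, had 87 to 182 reads per library.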
